A study of Mus musculus with 16 samples.

Results

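The transcripts of 10 genes that move, store or sense iron were followed in mouse bone-marrow-derived macrophages: Slc40a1, Hmox1, Tfrc, Steap3, Slc11a2, Slc11a1, Fth1, Ftl1, Ncoa4 and Ireb2. They were chosen with earlier results of these data known and matched by name to the 56980 rows of the count table. Each symbol matched 1 row, and all 10 passed the filter on low counts that left 15385 genes. Macrophages differentiated from marrow in M-CSF are a culture model of tissue macrophages. The study asked how the transcriptome depends on Mitf, Tfe3 and Tfeb, 3 transcription factors of lysosomal genes, in cells with and without progranulin (Grn). RNA was read by 3′ tag sequencing 10 days after transfection in 16 libraries, 4 per group, with 1 library of each group in each of 4 batches. The series design counts them as 16 animals.

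The 4 groups were GrnKO TKO (Grn-/- cells given Cas9 with guides against Mitf, Tfe3 and Tfeb), GrnKO Rosa26 (Grn-/- cells given Cas9 with a guide against the Rosa26 locus), WT TKO (Grn+/+ cells with the 3 guides) and WT Rosa26 (Grn+/+ cells with the Rosa26 guide). In all groups the frozen cells came, per the labels, from 12-week-old male mice on a C57Bl/6J background with an hTfRmu/hu knock-in, so a human transferrin receptor sequence was present beside the mouse one in every sample. Whether tags from the knock-in allele enter the Tfrc row was not tested, and Tfrc is read below only as a difference between groups that share the knock-in. Cells were transfected as populations and no clone was picked in the protocol, so each TKO sample may hold cells with different alleles.

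Macrophages take up iron bound to transferrin through the transferrin receptor, reduce it in the endosome and pass it to the cytosol, where ferritin stores it and ferroportin exports it. Those that clear erythrocytes open heme with heme oxygenase and return the iron to plasma. The iron regulatory proteins bind iron-responsive elements, short hairpins in the untranslated regions of several of these mRNAs. When iron is scarce they block translation of the ferritins and keep the Tfrc mRNA from decay. Ferritin mRNA is therefore known to be controlled in part at translation, which RNA tags do not read.

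The iron-responsive elements of Fth1, Ftl1 and Tfrc are shown because they are what separates storage from uptake in this control. They were searched in the GENCODE M21 transcripts (GRCm38) as C, 5 bases and CAGTG, followed by a base other than G and by 5 bases that can pair with the first 5. Capitals mark the bulged C and the hairpin loop, and each stretch is given 5′ to 3′ on the transcript strand.
Fth1, 5′ UTR, chr19:9982732-9982761, plus strand: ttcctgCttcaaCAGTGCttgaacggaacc
Ftl1, 5′ UTR, chr7:45459778-45459807, minus strand: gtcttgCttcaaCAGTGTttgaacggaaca
Tfrc, 3′ UTR, chr16:32631219-32631248, plus strand: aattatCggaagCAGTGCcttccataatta
Tfrc, 3′ UTR, chr16:32631598-32631627, plus strand: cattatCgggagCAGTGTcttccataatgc
Tfrc, 3′ UTR, chr16:32631663-32631692, plus strand: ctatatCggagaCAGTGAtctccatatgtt
Tfrc, 3′ UTR, chr16:32631710-32631739, plus strand: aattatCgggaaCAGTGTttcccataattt
All the elements listed share the loop up to its last base because the search required it. An element that departs from this pattern would not be found. The 2 ferritin matches lie before the coding sequence, while the 4 matches of Tfrc lie after it. Of 21875 genes searched, 17 (0.0777%) had such a match in the 5′ UTR and 91 (0.416%) in the 3′ UTR. The UTRs of Slc11a1, Steap3, Ncoa4 and Ireb2 held 0 matches in the transcripts searched, and the UTRs of Slc40a1, Hmox1 and Slc11a2 are not reported here. The RefSeq promoter table (GRCm38.p6, 250 bases before to 50 after each start) matched 7 of the 10 members, with 14 windows, and not Slc40a1, Hmox1 or Slc11a2. The E-box CACGTG, the core of the motif that MiT/TFE factors bind, was in 0 of these 14 windows on either strand and in 7.15% of all 32851 promoters. The pattern TGANNNNGC, a looser form of the antioxidant response core, was in 4 windows of 3 members (Slc11a1, Steap3 and Ncoa4) and in 41.3% of all promoters. These are letter matches in short windows and say nothing of binding.

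The whole data set bears on these genes as follows. Library totals lay between 18387630 and 28511950 counts in GrnKO TKO, 28431639 and 32969630 in GrnKO Rosa26, 16246705 and 21463730 in WT TKO and 7069527 and 22469456 in WT Rosa26, whose replicate 1 was the shallowest library. Grn tags lay between 40.7 and 56.1 CPM (counts scaled to the library size) in the 8 GrnKO libraries and between 2522 and 3693 CPM in the 8 WT libraries. With the edit Tfe3 fell in GrnKO (-0.51 ± 0.17, adjusted p = 0.0351) and in WT cells (-0.90 ± 0.17, adjusted p = 0.0108). Mitf rose in GrnKO cells (0.25 ± 0.09, adjusted p = 0.049), with -0.25 in WT cells (adjusted p = 0.172), and Tfeb gave -0.25 and -0.19, with no call. Tags at the 3′ end need not be lost when a guide cuts the coding sequence. The summed level of 8 macrophage markers was 7420 to 8240 CPM in GrnKO TKO, 6060 to 6430 in GrnKO Rosa26, 9540 to 9840 in WT TKO and 8070 to 10400 in WT Rosa26. All 8 erythroid markers were under 1 CPM in every library, with Hba-a1 at 0, and their sum reached at most 1.63 CPM. Neutrophil markers summed to 7.39 to 14.5 CPM, and those of stromal cells, lymphocytes and mast cells to at most 5.23 CPM. Although the labels give male mice, the Y-linked Ddx3y was under 10 CPM in 10 libraries (3 GrnKO TKO, 3 GrnKO Rosa26, 2 WT TKO and 2 WT Rosa26), and these had 169 to 269 CPM of Xist, an RNA made in female cells. The WT libraries of batch 2 held both, with Ddx3y at 31.7 CPM (TKO) and 34.2 CPM (Rosa26) and Xist at 217 and 212 CPM. Comparisons of genotype are therefore not balanced for sex-linked signal. The TKO and the Rosa26 library of a genotype lay on the same side of 10 CPM Ddx3y in all 8 pairs of one batch, and whether such a pair shares an animal is not given by the labels. Fits that take each such pair as a block, or for genotype the 8 libraries compared alone, were therefore added after seeing the data and are named where they change a call. In bulk RNA, fewer cells of a type and less RNA per cell cannot be told apart.

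A gene was called at an adjusted p under 0.05. With loss of Grn in the Rosa26 cells 9 of the 10 iron genes were called, and with the edit in Grn-/- cells 6 were called lower. Of the 9, Hmox1 (adjusted p = 0.0467) kept its call in 5 of 10 other settings. It kept it in 4 of 16 fits with 1 library left out. Of the 6, Slc11a1 (adjusted p = 0.00987) kept its call in 7 of 10 other settings. Among the 10 settings, ferritins summed with their copies leave the counts of all members but Fth1 and Ftl1 unchanged and are no separate check of those. In GrnKO against WT Rosa26 cells 6 members rose and 3 fell, and the libraries of 7 did not overlap between the groups. Among all 15385 genes tested, 44.6% were called in this comparison (23.1% higher and 21.5% lower), and 34.5% did not overlap. For TKO against Rosa26 in GrnKO cells 0 members rose and 6 fell, with 6 that did not overlap, against 32.6% called (14.8% higher, 17.8% lower) and 31.8% without overlap among all genes. For the same edit in WT cells 1 member fell and 0 failed to overlap, against 3.35% called (2.18% higher, 1.16% lower) and 5.62% without overlap among all genes. GrnKO against WT in the TKO cells gave 2 rises and 1 fall, with 3 members that did not overlap, against 4.99% called (2.53% higher, 2.45% lower) and 8.42% without overlap. The median log2 change of the members was 0.42, -0.30, -0.08 and 0.09 in these 4 comparisons, while that of all genes lay between -0.01 and 0.00. As the members were chosen with earlier results known, these shares and medians do not test them as a set against all genes. The 4 comparisons share their groups in pairs, so the same GrnKO Rosa26 libraries enter the rise with Grn loss and the fall with the edit. GrnKO Rosa26 was also the deepest group and had the lowest macrophage marker sum, most of which was Lyz2 (4128 CPM, against 6063 CPM in WT Rosa26). With Grn loss in Rosa26 cells 1 of the 8 macrophage markers rose (Mertk, 194 against 101 CPM), 4 fell (Lyz2, Adgre1, Itgam and Cd14) and 3 were not called, and the part of the markers in the iron genes' changes was not tested. After each library was thinned to the shallowest total 8 members were called with Grn loss, beside 43.9% of 12625 genes, and 5 with the edit in GrnKO cells, beside 28.8%. A change reported below is a log2 fold change ± SE of edgeR's quasi-likelihood test with Benjamini-Hochberg adjustment over all genes tested.

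**Figure D1:**
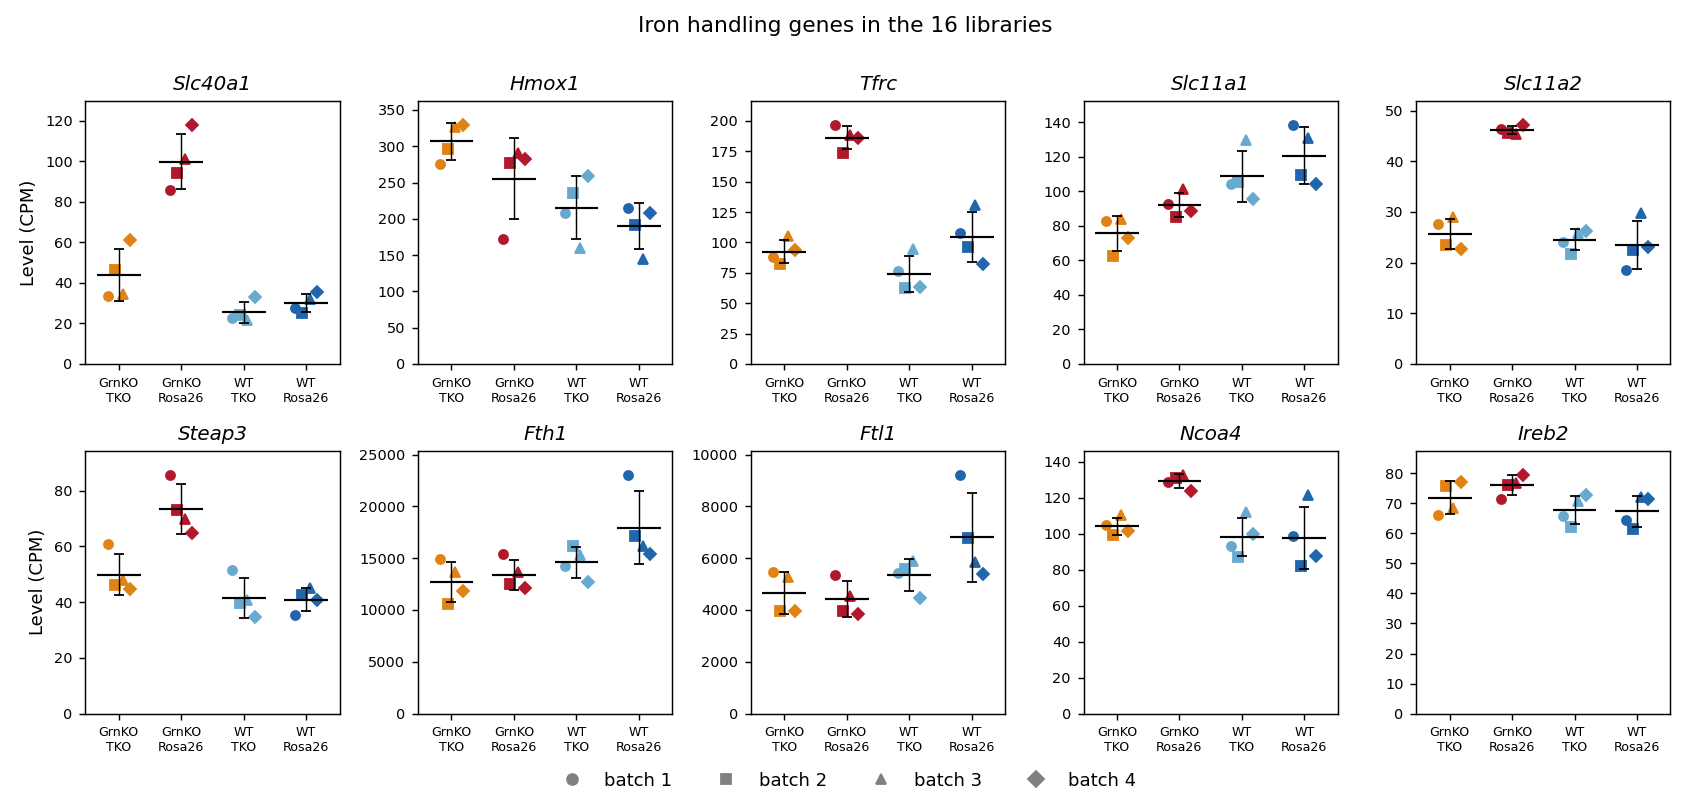
Level of each iron gene in CPM (vertical axis, linear from 0) in the 16 libraries by group, with marker shape for the batch, the group mean as a line and ± 1 SD as a bar (n = 4). GrnKO Rosa26 libraries lie above all others for Slc40a1, Tfrc, Slc11a2, Steap3 and Ncoa4, and WT Rosa26 replicate 1 is the highest library for Fth1 and Ftl1.

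Slc40a1 (ENSMUSG00000025993), which encodes ferroportin, the one known exporter of iron from mammalian cells, gave the largest change of the 10 genes with Grn loss in Rosa26 cells. It had 33.7, 46.2, 34.7 and 61.0 CPM in GrnKO TKO and 85.8, 94.3, 101 and 118 CPM in GrnKO Rosa26 libraries (batches 1 to 4, the order used for all libraries). It had 22.5, 24.2, 21.8 and 33.1 CPM in WT TKO and 27.7, 25.3, 32.0 and 35.7 CPM in WT Rosa26 libraries. Each GrnKO Rosa26 library was higher than every library of the other groups. Next in order came GrnKO TKO, WT Rosa26 and WT TKO, of which the first overlapped WT Rosa26 and lay just above WT TKO. The lowest GrnKO TKO library (33.7 CPM) and the highest WT TKO library (33.1 CPM) were both at 33 in the authors' CPM. Slc40a1 rose with loss of Grn in Rosa26 cells (1.73 ± 0.11, adjusted p = 9.42e-10) and fell with the edit in GrnKO cells (-1.21 ± 0.10, adjusted p = 1.52e-07). The edit in WT cells gave -0.26 ± 0.11 (adjusted p = 0.232, not a call), although each batch was lower (-0.54 to -0.06). The difference between these edit effects was called (-0.95 ± 0.15, adjusted p = 0.000741). In the TKO cells Slc40a1 was also higher without Grn (0.78 ± 0.11, adjusted p = 0.000238), and GrnKO TKO was above WT Rosa26 (0.52 ± 0.11, adjusted p = 0.00381). That last call was lost at a like size without the batch term (0.54, adjusted p = 0.0927) and in the 8 libraries compared alone (0.52, adjusted p = 0.0662). In the 10 libraries with little Ddx3y its change was 0.26 (adjusted p = 0.509), and the one in TKO cells was lost too (0.45, adjusted p = 0.542).

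Hmox1 (ENSMUSG00000005413) encodes heme oxygenase 1, which opens heme and frees its iron. It had 276, 297, 326 and 329 CPM in GrnKO TKO and 172, 277, 290.0 and 283 CPM in GrnKO Rosa26 libraries, against 208, 236, 159 and 259 CPM in WT TKO and 215, 192, 144 and 208 CPM in WT Rosa26 libraries. The groups stood in that order, each overlapping its neighbour, and the batch 1 library of GrnKO Rosa26 lay far below the other 3 of its group. Hmox1 was called higher in Rosa26 cells without Grn (0.43 ± 0.16, adjusted p = 0.0467), although batch 1 was lower (per batch -0.33 to 1.01). This call was lost with other scaling (adjusted p = 0.062), a higher expression filter (0.0824), thinning to the shallowest library (0.0528) and in the 8 libraries compared alone (0.147). In the 10 libraries with little Ddx3y the change was 0.21 (adjusted p = 0.405). With 1 library left out the change lay between 0.27 (without GrnKO Rosa26 replicate 3) and 0.60 (without GrnKO Rosa26 replicate 1). It was still called without WT Rosa26 replicate 1, WT TKO replicate 3, GrnKO Rosa26 replicate 1 or GrnKO TKO replicate 3 and lost for the other 12, at an adjusted p of up to 0.171. Hmox1 was not called with the edit in GrnKO cells (0.27 ± 0.16, adjusted p = 0.211, 95% interval -0.06 to 0.61) or in WT cells (0.18 ± 0.16, adjusted p = 0.649, 95% interval -0.16 to 0.52), except in GrnKO cells without GrnKO Rosa26 replicate 3 (adjusted p = 0.0392) and with pairs of genotype and batch as the block (0.29, adjusted p = 0.00932). In TKO cells the GrnKO and WT libraries did not overlap, but the difference missed the threshold (0.52 ± 0.16, adjusted p = 0.0839). It passed with no filter on low counts (0.53, adjusted p = 7.41e-07), with DESeq2 (adjusted p = 0.0137), in the 8 libraries compared alone (0.0229) and without WT Rosa26 replicate 1 (0.0429), GrnKO Rosa26 replicate 1 (0.0191) or GrnKO Rosa26 replicate 3 (0.04). GrnKO TKO was higher than WT Rosa26 (0.70 ± 0.16, adjusted p = 0.0138), with no overlap. This was the one comparison in which Hmox1 separated without overlap and was called, and the call was lost without WT Rosa26 replicate 2 (adjusted p = 0.0577). The edit effects in the 2 genotypes were not shown to differ (0.10 ± 0.23, adjusted p = 0.817).

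Tfrc (ENSMUSG00000022797), the transferrin receptor that brings iron-loaded transferrin into endosomes, rose with loss of Grn and fell with the edit. It had 88.3, 82.5, 105 and 93.5 CPM in GrnKO TKO and 197, 173, 189 and 186 CPM in GrnKO Rosa26 libraries. It had 76.8, 62.1, 94.3 and 63.6 CPM in WT TKO and 108, 95.8, 131 and 82.3 CPM in WT Rosa26 libraries. The GrnKO Rosa26 libraries were above all others, and the other 3 groups overlapped, in the order WT Rosa26, GrnKO TKO and WT TKO. The change with Grn loss in Rosa26 cells was 0.86 ± 0.09, adjusted p = 8.88e-07. The edit lowered Tfrc in GrnKO cells (-1.02 ± 0.09, adjusted p = 3.29e-07) and, as the one member called there, in WT cells (-0.49 ± 0.09, adjusted p = 0.00518), where each batch was lower (-0.62 to -0.37). The fall was larger in GrnKO cells (-0.53 ± 0.13, adjusted p = 0.0131). Without the batch term neither the fall in WT cells (-0.49, adjusted p = 0.0834) nor the difference (-0.52, adjusted p = 0.101) was called, at like sizes. Nor were they in the libraries with little Ddx3y (-0.43 and -0.59, adjusted p = 0.477 and 0.12). In TKO cells Tfrc was higher without Grn (0.33 ± 0.09, adjusted p = 0.0444), with overlapping groups. That call was lost in 6 of 10 other settings, at an adjusted p of up to 0.484. The 8 libraries compared alone were among the 6 (0.34, adjusted p = 0.0601). With 1 library left out it was kept for WT Rosa26 replicates 1, 3 and 4 and GrnKO Rosa26 replicate 3 and lost for the other 12. GrnKO TKO and WT Rosa26 were not shown to differ (-0.16 ± 0.09, adjusted p = 0.281, 95% interval -0.35 to 0.03).

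Steap3 (ENSMUSG00000026389), a ferrireductase of the endosome that reduces iron released from transferrin, had 60.7, 46.2, 47.8 and 44.7 CPM in GrnKO TKO and 85.8, 73.0, 69.9 and 64.9 CPM in GrnKO Rosa26 libraries. It had 51.5, 39.8, 40.7 and 34.5 CPM in WT TKO and 35.4, 42.4, 45.1 and 40.6 CPM in WT Rosa26 libraries. The GrnKO Rosa26 libraries were the highest, with no overlap, and the other 3 groups overlapped. Steap3 rose with loss of Grn in Rosa26 cells (0.81 ± 0.10, adjusted p = 4.25e-06) and fell with the edit in GrnKO cells (-0.56 ± 0.10, adjusted p = 0.000362), while the edit in WT cells gave -0.01 ± 0.10 (adjusted p = 0.977). The edit effects differed between the genotypes (-0.55 ± 0.14, adjusted p = 0.0161), a call not made without the batch term (adjusted p = 0.0567) or in the libraries with little Ddx3y (0.116). In WT cells batch 1 moved up and the other 3 batches down (per batch -0.23 to 0.54). In TKO cells the difference with genotype was 0.26 ± 0.10 (adjusted p = 0.145), called without WT Rosa26 replicate 1 (adjusted p = 0.0333).

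Slc11a2 (ENSMUSG00000023030), which encodes DMT1, the transporter that passes reduced iron out of the endosome, had 27.6, 23.4, 28.9 and 22.8 CPM in GrnKO TKO and 46.5, 45.6, 45.4 and 47.2 CPM in GrnKO Rosa26 libraries. It had 24.1, 21.7, 25.9 and 26.3 CPM in WT TKO and 18.5, 22.6, 29.7 and 23.0 CPM in WT Rosa26 libraries. GrnKO Rosa26 stood alone at 46.2 ± 0.807 CPM (SD, n = 4), the least varied of its 4 groups, and the means of the others lay within 23.5 and 25.7 CPM and overlapped. Slc11a2 rose with Grn loss in Rosa26 cells (0.97 ± 0.11, adjusted p = 1.08e-06) and fell with the edit in GrnKO cells (-0.86 ± 0.10, adjusted p = 9.5e-06). In WT cells the edit gave 0.06 ± 0.11 (adjusted p = 0.85, 95% interval -0.17 to 0.28), and the edit effects differed (-0.91 ± 0.15, adjusted p = 0.000981). In TKO cells the genotypes differed by 0.06 ± 0.11 (adjusted p = 0.819, 95% interval -0.16 to 0.28). The counts behind this gene were the lowest of the 10, from 120 counts in WT Rosa26 replicate 1 upward, and the deposited counts carry 2 significant digits, a rounding of up to 5% (0.07 on the log2 scale).

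Slc11a1 (ENSMUSG00000026177), the divalent metal transporter NRAMP1 of the phagosome, moved the other way from Slc11a2 with Grn loss in Rosa26 cells. It had 82.8, 62.7, 84.1 and 73.2 CPM in GrnKO TKO and 92.9, 85.2, 101 and 88.5 CPM in GrnKO Rosa26 libraries, against 104, 106, 129.7 and 95.4 CPM in WT TKO and 138, 109.5, 131 and 104 CPM in WT Rosa26 libraries. Both GrnKO groups were below the WT group with the same edit, with no overlap, and the GrnKO TKO libraries were the lowest of all. C57BL/6 mice carry a variant of this gene known to impair the protein, so its mRNA is read here only as a level. Slc11a1 was lower without Grn in Rosa26 cells (-0.38 ± 0.08, adjusted p = 0.000707) and in TKO cells (-0.52 ± 0.08, adjusted p = 0.000743). The edit lowered it in GrnKO cells (-0.29 ± 0.08, adjusted p = 0.00987), a call not made without the batch term (adjusted p = 0.0757), after thinning (adjusted p = 0.0684) or in the libraries with little Ddx3y (0.176). The edit in WT cells gave -0.15 ± 0.08 (adjusted p = 0.368), and the edit effects were not shown to differ (adjusted p = 0.433). GrnKO TKO against WT Rosa26 gave -0.67 ± 0.08, adjusted p = 4.02e-05. Among libraries with little Ddx3y the fold changes with genotype were -0.38 in Rosa26 cells (adjusted p = 0.0756) and -0.39 in TKO cells (adjusted p = 0.511).

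Fth1 (ENSMUSG00000024661), the heavy subunit of ferritin that oxidizes iron for storage, had 14895, 10554, 13670.0 and 11792 CPM in GrnKO TKO and 15372, 12473, 13628 and 12090.0 CPM in GrnKO Rosa26 libraries. It had 14256, 16156, 15329 and 12714 CPM in WT TKO and 23082, 17113, 16222 and 15359 CPM in WT Rosa26 libraries. Ftl1 (ENSMUSG00000050708), the light subunit that aids the mineral core, had 5462, 3958, 5258 and 3944 CPM in GrnKO TKO and 5362, 3955, 4543 and 3834 CPM in GrnKO Rosa26 libraries, against 5428, 5592, 5896 and 4449.8 CPM in WT TKO and 9233, 6777, 5858 and 5376 CPM in WT Rosa26 libraries. WT Rosa26 was the highest group for both subunits, led by its replicate 1, and neighbouring groups overlapped. Both fell with Grn loss in Rosa26 cells, with -0.41 ± 0.09, adjusted p = 0.00133 for Fth1 and -0.61 ± 0.10, adjusted p = 6.75e-05 for Ftl1, and each batch was lower for both. Leaving out WT Rosa26 replicate 1, or any other library, kept both calls, with Fth1 between -0.47 and -0.34 and Ftl1 between -0.71 and -0.52. Among libraries with little Ddx3y the Fth1 change was -0.48 (adjusted p = 0.0599). The edit gave -0.08 ± 0.09 and 0.07 ± 0.10 in GrnKO cells (adjusted p = 0.566 and 0.604, no call). In WT cells it gave -0.28 ± 0.09 and -0.33 ± 0.10 (adjusted p = 0.115 and 0.075, no call). Both were called lower there with no filter on low counts (adjusted p = 0.0286 and 0.0056), with pairs of genotype and batch as the block (0.0452 and 0.0317) and without WT Rosa26 replicate 3 (0.0423 and 0.00925). Fth1 was also called without WT TKO replicate 2 (0.0492) and Ftl1 with DESeq2 (0.0471). In TKO cells Grn loss gave -0.21 ± 0.09 and -0.21 ± 0.10 (adjusted p = 0.213 and 0.244), with Fth1 called without WT TKO replicate 1 (0.0447). GrnKO TKO was lower than WT Rosa26 for Fth1 (-0.49 ± 0.09, adjusted p = 0.00227) and Ftl1 (-0.54 ± 0.10, adjusted p = 0.00187), with Ftl1 not called without the batch term (adjusted p = 0.0539). Together the 2 genes took 1.77 ± 0.21% of all counts in GrnKO TKO, 1.79 ± 0.183% in GrnKO Rosa26, 1.98 ± 0.168% in WT TKO and 2.39 ± 0.395% in WT Rosa26 (SD, n = 4).

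Ftl1 shares its sequence with close copies, and counts may be split among them. Ftl1-ps1 matched Ftl1 at 99.6% of 910 aligned bases and Ftl2-ps at 98.7% of 552 (GENCODE M21). Ftl1-ps1 had 369.6, 561, 431 and 338 CPM in GrnKO TKO and 643, 639, 629 and 708 CPM in GrnKO Rosa26 libraries. It had 345, 342, 354 and 354 CPM in WT TKO and 1077, 479, 419 and 329 CPM in WT Rosa26 libraries. Its level was therefore 9.42 ± 3.26% of that of Ftl1 in GrnKO TKO, 15.1 ± 2.8% in GrnKO Rosa26, 6.61 ± 0.913% in WT TKO and 8 ± 2.49% in WT Rosa26. The Ftl1-ps1 row itself passed no test (GrnKO against WT in Rosa26 0.27 ± 0.30, adjusted p = 0.488). Ftl2-ps was lower with Grn loss in Rosa26 cells (7.43 against 15.1 CPM, -1.04 ± 0.17, adjusted p = 8.09e-05). In TKO cells Ftl2-ps was lower too (-0.66 ± 0.17, adjusted p = 0.0297). Fth1-ps, named as a copy of Fth1, was lower in Rosa26 cells (11.4 against 28.0 CPM, -1.13 ± 0.23, adjusted p = 0.00163). The WT Rosa26 mean was raised by replicate 1 (58.5 CPM, group median 19.4), and the change per batch lay between -2.03 and -0.23. With each ferritin summed with its copies, Ftl1 in GrnKO against WT Rosa26 was -0.52 ± 0.10 (adjusted p = 0.000388) and Fth1 -0.42 ± 0.09 (adjusted p = 0.00124).

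Ncoa4 (ENSMUSG00000056234), the receptor that carries ferritin to lysosomes for release of its iron, rose while the ferritins fell. It had 105, 98.9, 110.4 and 102 CPM in GrnKO TKO and 129, 131, 133 and 124 CPM in GrnKO Rosa26 libraries. It had 93.2, 87.0, 112 and 99.9 CPM in WT TKO and 98.5, 82.1, 122 and 87.8 CPM in WT Rosa26 libraries. GrnKO Rosa26 was again above all other libraries, by a narrow gap to WT Rosa26 replicate 3, and the other 3 groups overlapped. Ncoa4 rose with Grn loss in Rosa26 cells (0.42 ± 0.08, adjusted p = 0.000392) and fell with the edit in GrnKO cells (-0.31 ± 0.08, adjusted p = 0.00587, lost without GrnKO Rosa26 replicate 2 at 0.0572). The edit in WT cells gave 0.01 ± 0.08 (adjusted p = 0.959). The difference of the edit effects missed the threshold (-0.33 ± 0.11, adjusted p = 0.0622), although each batch had the same sign (-0.48 to -0.15). It passed with no filter on low counts (-0.43, adjusted p = 0.0164), with limma-trend (-0.44, adjusted p = 0.0185) and with pairs of genotype and batch as the block (-0.33, adjusted p = 0.0127). It also passed without WT Rosa26 replicate 3 (adjusted p = 0.00865) or GrnKO Rosa26 replicate 3 (0.0395).

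Ireb2 (ENSMUSG00000032293), the iron regulatory protein IRP2 that binds the elements shown above, passed no test in this fit. It had 66.2, 75.9, 68.3 and 77.3 CPM in GrnKO TKO and 71.5, 76.1, 76.9 and 79.6 CPM in GrnKO Rosa26 libraries, against 65.8, 62.1, 70.7 and 72.6 CPM in WT TKO and 64.6, 61.6, 72.1 and 71.3 CPM in WT Rosa26 libraries. All 4 groups overlapped. Its largest change was with Grn loss in Rosa26 cells (0.17 ± 0.07, adjusted p = 0.0574, 95% interval 0.02 to 0.33), higher in each batch. That change was called with no filter on low counts (0.29, adjusted p = 0.0206) and with limma-trend on the authors' CPM (0.29, adjusted p = 0.0056). Over the genes shared with the main fit, these settings shifted the change by a median of 0.109 and 0.113. The Ireb2 change was also called without GrnKO TKO replicate 2 (adjusted p = 0.046), GrnKO TKO replicate 3 (0.0495) or WT Rosa26 replicate 3 (0.0315). IRP2 is known to be controlled through the stability of the protein, which was not measured.

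**Figure D2:**
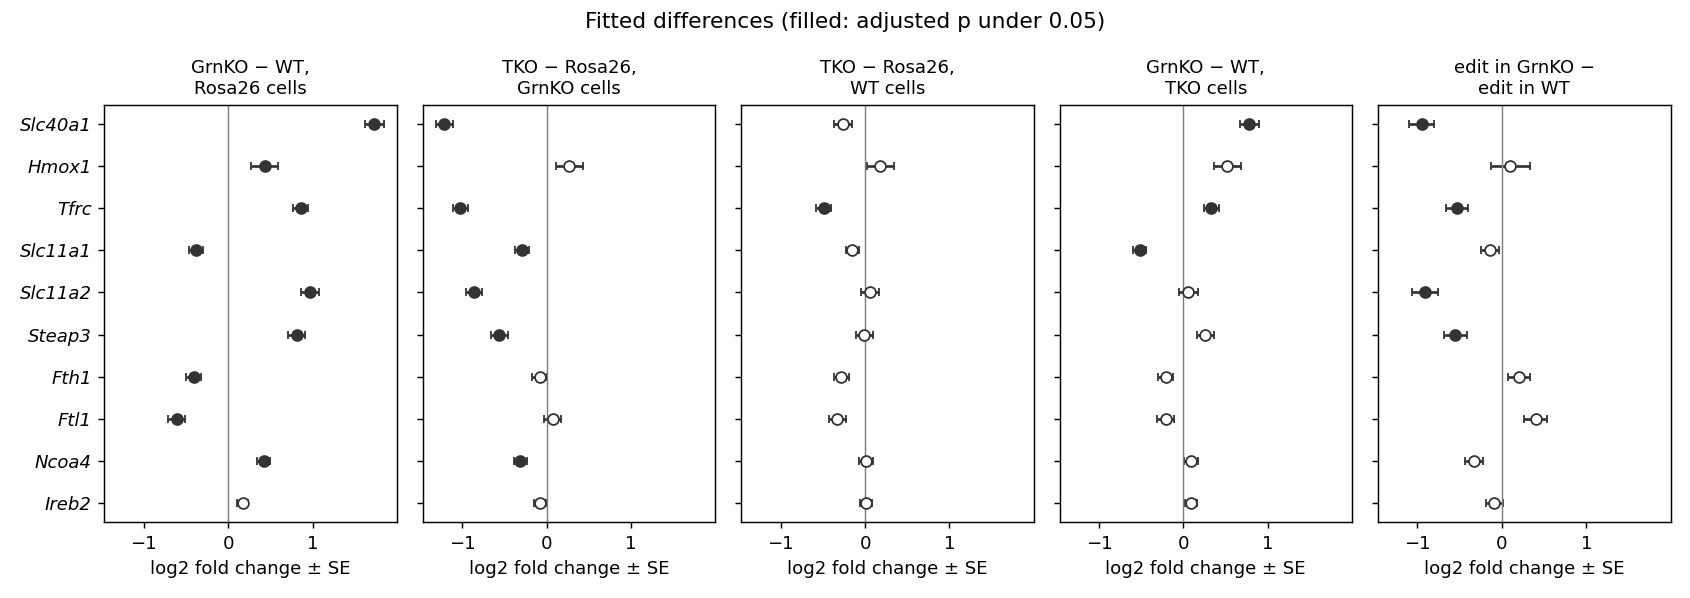
Log2 fold change ± SE (horizontal axis) of each iron gene in 4 comparisons and, at the right, the edit effect in GrnKO minus that in WT. Filled points passed an adjusted p of 0.05. Slc40a1, Tfrc, Slc11a2 and Steap3 lie right of 0 with Grn loss in Rosa26 cells and left of 0 with the edit in GrnKO cells, while Fth1 and Ftl1 lie left of 0 with Grn loss and near 0 with the edit in GrnKO cells.

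The edit effect differed between the genotypes for some of the iron genes. The test of that difference called 4 of the 10 members, all with a lower value for the edit in GrnKO than in WT cells, where 13.4% of all genes were called (5.8% higher and 7.63% lower). They were Slc40a1, Slc11a2, Steap3 and Tfrc. For Slc40a1 the per-batch difference lay between -1.04 and -0.84, for Slc11a2 between -1.22 and -0.45, for Steap3 between -1.03 and -0.30 and for Tfrc between -0.66 and -0.37. Each of the 4 genes therefore had the same sign in all 4 batches. Ftl1 lay on the other side, with 0.40 ± 0.14, adjusted p = 0.0604. It was called in 4 of 10 other settings, at adjusted p between 0.0298 (pairs of genotype and batch as the block) and 0.0443. Ftl1 was also called without WT TKO replicate 2, GrnKO TKO replicate 2 or WT Rosa26 replicate 3 (0.0409, 0.0302 and 0.00643). In GrnKO TKO against WT Rosa26 cells 2 members rose (Slc40a1 and Hmox1) and 3 fell (Slc11a1, Fth1 and Ftl1), 3 of them without overlap. Of all genes 12.7% were called (6.43% higher, 6.25% lower) and 9.55% did not overlap there. Among the libraries with little Ddx3y 0 of these 5 calls were made. For Tfrc, Slc11a2, Steap3, Ncoa4 and Ireb2 the 95% interval of this comparison held 0 or, for Steap3, lay at 0.04 to 0.47 with an adjusted p of 0.11.

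**Figure D3:**
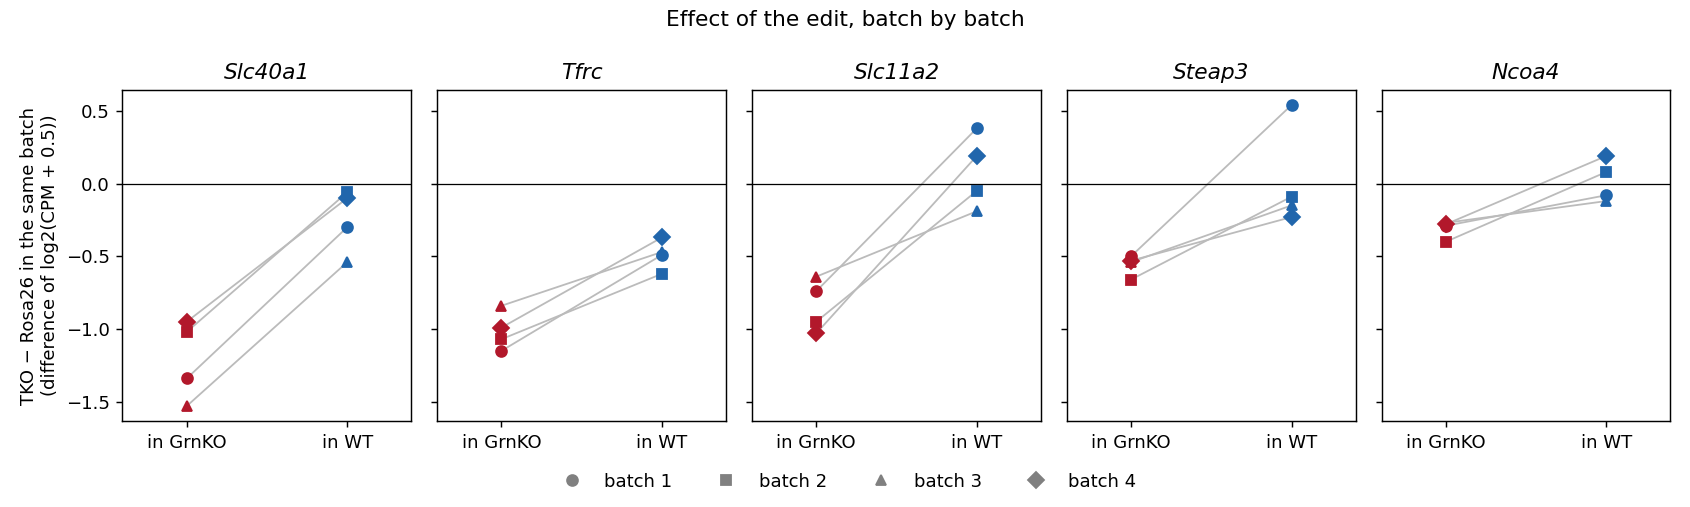
Difference of log2(CPM + 0.5) between the TKO and the Rosa26 library of the same batch (vertical axis), in GrnKO and in WT cells, with a line joining the same batch. The difference in GrnKO cells lies below 0 in all 4 batches for the 5 genes shown and below that in WT cells of the same batch.

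The rest of iron and heme metabolism was read from 8 lists with 105 other genes, of which 91 were tested. With Grn loss in Rosa26 cells 20 rose and 26 fell (50.5%, beside 44.6% of all genes), with a median log2 change of 0.04. With the edit 15 rose and 20 fell in GrnKO cells (38.5%, beside 32.6%) and 4 rose and 3 fell in WT cells (7.69%, beside 3.35%). In TKO cells 2 rose and 4 fell with Grn loss (6.59%, beside 4.99%). The difference of the edit effects was called for 20 (22%, beside 13.4%). The lists thus moved in both directions. The share called was somewhat above that of all genes in each of these 5 comparisons, and for the edit in WT cells it rests on 7 called genes. The lists were chosen with earlier results known, and the excess was not tested.

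Ceruloplasmin (Cp), the ferroxidase that partners ferroportin in export, moved opposite to Slc40a1 with Grn loss and with the edit. It averaged 22.2 ± 2.44 CPM in GrnKO TKO, 4.07 ± 1.12 in GrnKO Rosa26, 35.1 ± 5.99 in WT TKO and 11.7 ± 1.66 in WT Rosa26 libraries (SD, n = 4). Cp fell with Grn loss in Rosa26 cells (-1.53 ± 0.17, adjusted p = 2.98e-06) and in TKO cells (-0.65 ± 0.15, adjusted p = 0.0185). It rose with the edit in GrnKO (2.45 ± 0.17, adjusted p = 2.3e-08) and in WT cells (1.57 ± 0.16, adjusted p = 2.22e-05), and more in GrnKO (0.88 ± 0.23, adjusted p = 0.0185). Of the list of export and hepcidin genes 2 of 5 were tested, and Cp was the one called in each of these comparisons. Slc39a8 and Slc39a14, 2 importers of iron not bound to transferrin, had the sign of Cp in the 2 comparisons given next. Slc39a8 (ZIP8) averaged 56.9 ± 18.3, 29.8 ± 4.42, 60.8 ± 12.2 and 48.4 ± 6.87 CPM in the same group order, with -0.70 ± 0.10, adjusted p = 1.65e-05 for Grn loss and 0.90 ± 0.10, adjusted p = 2.9e-06 for the edit in GrnKO cells. Slc39a14 (ZIP14) gave -0.67 ± 0.13, adjusted p = 0.00038 and 0.80 ± 0.13, adjusted p = 0.000131. These were the called members of the 7 tested genes of uptake and reduction in both comparisons, which share the GrnKO Rosa26 libraries. For the edit in WT cells and for Grn loss in TKO cells, where Cp was called, 0 of the 7 were called.

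Of the 11 tested genes of heme and hemoglobin recycling, 2 rose and 2 fell with Grn loss in Rosa26 cells. Biliverdin reductase A (Blvra), which acts after heme oxygenase, averaged 73.8 ± 9.54 CPM in GrnKO TKO, 101 ± 8.62 in GrnKO Rosa26, 57.8 ± 4.29 in WT TKO and 60.9 ± 7.94 in WT Rosa26 libraries. It rose with Grn loss (0.73 ± 0.08, adjusted p = 7.71e-07) and fell with the edit in GrnKO cells (-0.46 ± 0.08, adjusted p = 0.000231). Slc48a1, the lysosomal heme exporter HRG1, did likewise (0.66 ± 0.08, adjusted p = 5.96e-06 and -0.49 ± 0.08, adjusted p = 0.000301). Blvrb fell (-0.48 ± 0.09, adjusted p = 0.000227). The edit in WT cells lowered the efflux pump Abcg2 (-0.50 ± 0.13, adjusted p = 0.0366).

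Iron sensors and chaperones gave 2 rises and 4 falls among 8 tested genes with Grn loss in Rosa26 cells. Fbxl5, the subunit of the ubiquitin ligase that removes IRP2 when iron is ample, averaged 41.5 ± 2.54 CPM in GrnKO TKO, 33.0 ± 2.34 in GrnKO Rosa26, 55.2 ± 4.93 in WT TKO and 56.1 ± 5.47 in WT Rosa26 libraries, a fall of -0.77 ± 0.08, adjusted p = 7.16e-07. Aco1, which encodes IRP1, rose (0.66 ± 0.10, adjusted p = 3.98e-05). The iron chaperones split, with Pcbp1 higher (0.64 ± 0.10, adjusted p = 4.4e-05) and Pcbp2 lower (-0.76 ± 0.08, adjusted p = 7.65e-07). With the edit in GrnKO cells each of these 4 was called in the opposite direction, with 0.33 for Fbxl5, -0.34 for Aco1, -0.41 for Pcbp1 and 0.42 for Pcbp2. In WT cells the edit called 0 of the 8 by edgeR. The comparisons share the GrnKO Rosa26 libraries.

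Mitochondrial genes of iron and heme synthesis gave 4 rises and 3 falls among 16 tested with Grn loss in Rosa26 cells. Tmem14c, which moves a heme precursor across the inner membrane, rose (0.54 ± 0.08, adjusted p = 3.42e-05), as did Cpox (0.68 ± 0.11, adjusted p = 8.28e-05), while Alas1, the first enzyme of heme synthesis, fell (-0.62 ± 0.10, adjusted p = 6.4e-05). With the edit in GrnKO cells Tmem14c (-0.62) and Cpox (-0.62) fell and Alas1 (0.40) rose. Slc25a37 (mitoferrin 1) was the one called in WT cells (0.39 ± 0.10, adjusted p = 0.039). Iron-sulfur cluster assembly had 8 rises and 8 falls among 27 genes with Grn loss. The lowest p were those of Hspa9 (0.58 ± 0.09, adjusted p = 3.46e-05), Cisd2 (0.46 ± 0.07, adjusted p = 4.02e-05) and Nubp2 (-0.88 ± 0.14, adjusted p = 8.7e-05).

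In the BACH1 and NRF2 pathway, which governs Hmox1 and other antioxidant genes, 3 of 13 rose and 4 fell with Grn loss in Rosa26 cells. Glutathione reductase (Gsr) rose (0.90 ± 0.12, adjusted p = 8.32e-06), while Gclm (-0.51 ± 0.10, adjusted p = 0.000286) and Txnrd1 (-0.41 ± 0.10, adjusted p = 0.00326) fell. Maff, a small partner of both factors, gave -1.56 ± 0.37, adjusted p = 0.00364 with Grn loss and 1.64 ± 0.35, adjusted p = 0.0032 with the edit in GrnKO cells. The edit in WT cells raised Gclc (0.45 ± 0.10, adjusted p = 0.0129) and the cystine importer Slc7a11 (0.93 ± 0.21, adjusted p = 0.0184), and the Slc7a11 effect differed in GrnKO cells (-1.03 ± 0.28, adjusted p = 0.0229). Of 7 genes of ferroptosis defence and lipid peroxidation, Acsl4 (-0.67 ± 0.08, adjusted p = 2.28e-06) and Gpx4 (-0.28 ± 0.08, adjusted p = 0.00907) fell and Lpcat3 rose (0.49 ± 0.09, adjusted p = 0.000196).

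**Figure D4:**
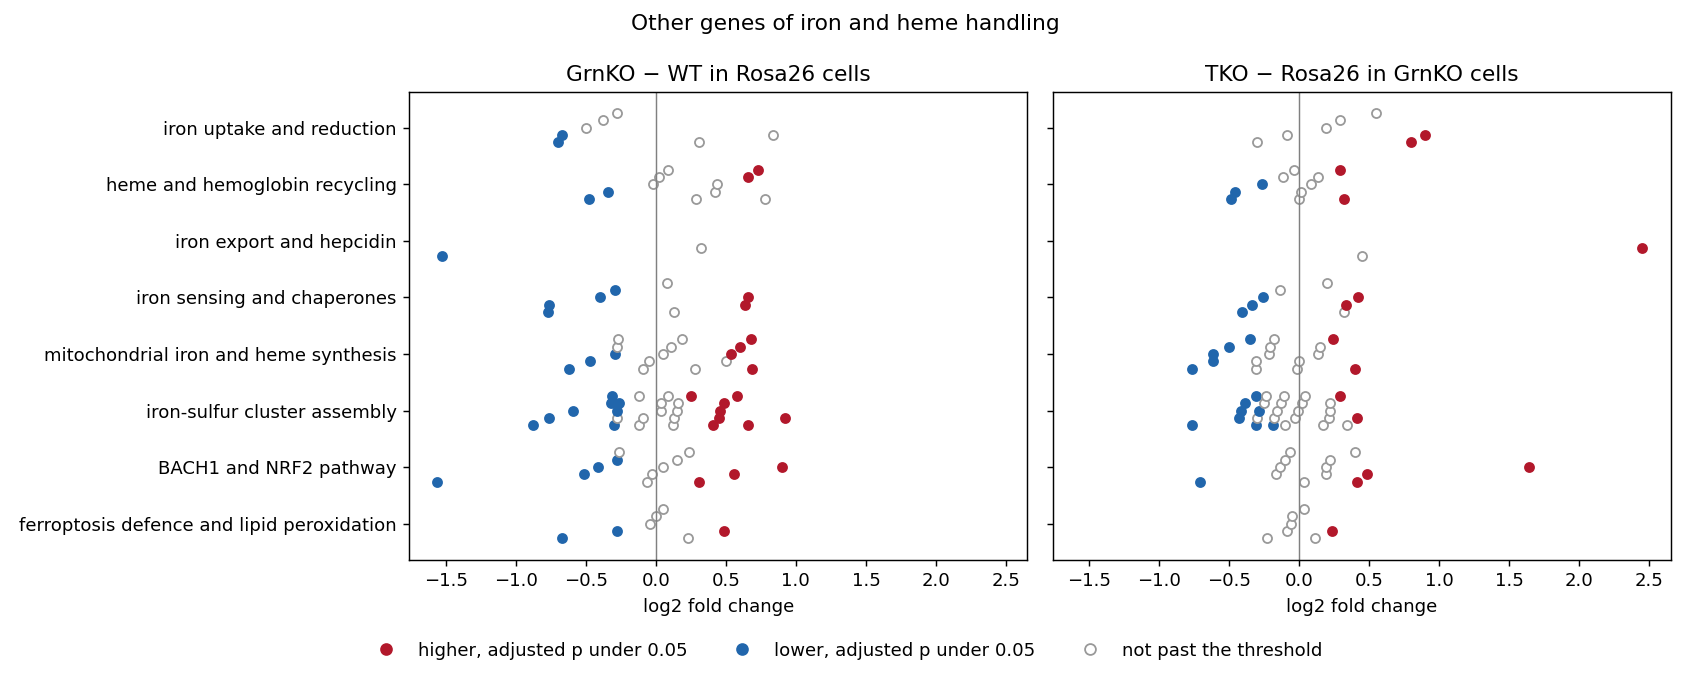
Log2 fold change (horizontal axis) of the tested genes of 8 iron and heme lists, 1 point per gene, for Grn loss in Rosa26 cells and for the edit in GrnKO cells. Rises and falls stand on both sides of 0 in most lists, and Cp is the point at -1.53 in the first comparison and at 2.45 in the second.

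The genes whose level followed that of a member most closely over the 16 libraries were sought among 9704 genes averaging at least 5 CPM, by Pearson's r of log2 CPM. For Slc40a1 they were Plxnc1 (r = 0.982), Ndst1 (0.971) and Gdpd1 (0.967). Plxnc1 averaged 64.8 ± 8.58 CPM in GrnKO TKO, 107 ± 4.47 in GrnKO Rosa26, 49.9 ± 4.69 in WT TKO and 53.6 ± 4.72 in WT Rosa26 libraries. For Tfrc they were Cpe (0.968), Stx7 (0.965) and Coq2 (0.961), and Cpe averaged 85.0 ± 10.6, 263 ± 4.77, 43.1 ± 8.92 and 95.9 ± 20.6 CPM in the same group order. For Hmox1 the highest were Dicer1 (0.917), Zc3h13 (0.89) and Ap2a2 (0.886), lower than for the other 2. The points share library, depth and group, and these values are descriptions.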

How the data were processed

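Tags from the 3′ end carried unique molecular identifiers, per the labels' protocols. The sources used here do not give how these were used, the annotation release or the filters. No step is assigned to the tools in the submitters' processing notes, which are R 4.5.1, edgeR 4.6.2, STAR 2.7.9a and Salmon 1.10.1, with the build GRCm39. The deposited table holds estimated counts, as 11% of the non-zero values are not whole, and every value carries 2 significant digits. The authors' scaled CPM, a normalised signal summing to 936181 to 1063510 per library, was deposited too and used as an alternative.

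Counts were rounded to integers here, filtered with filterByExpr on group, scaled by TMM and fitted in edgeR 4.0.16 (R 4.3.3) with group and batch as terms over all 16 libraries (glmQLFit, robust, glmQLFTest). P-values were adjusted over 15385 genes. The biological coefficient of variation was 12%. CPM values are from these counts and factors. The p-values measure the spread between these libraries, taken as independent after the group and batch terms. Where the TKO and the Rosa26 library of a genotype and batch share an animal, they do not measure the spread between animals. Scripts were tested on simulated data.

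Batch pairs the samples because the series design gives it. Deviations from group means, compared as a check, correlated at 0.363 between TKO and Rosa26 libraries of a batch in GrnKO (lowest 0.254) and at 0.351 in WT (lowest 0.259), and at 0.0506 to 0.106 across genotypes (lowest -0.199 to 0.0388), where single batches did not all deviate together.

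The named genes were the 10 members, up to 3 called genes with the lowest p in each list for a comparison, 3 genes of like pattern for Slc40a1, Hmox1 and Tfrc, and the ferritin copies. The members and lists were chosen with earlier results of these data known. The alternatives were RLE scaling, no filter, a mean of 5 CPM or more, no batch term, DESeq2 1.42.0, limma-trend (limma 3.58.1) on log2 of the authors' CPM + 0.5, thinning to the shallowest library, the 10 libraries with Ddx3y under 10 CPM, each library left out in turn and, added after seeing the data, ferritins summed with their copies, pairs of one genotype and batch as the block for the edit, and for genotype the 8 libraries compared alone.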

Additional observations from a re-analysis of the deposited data

Results flagged for a closer look

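In 1 of 40 groups of 4 libraries a member's extreme value stood apart by Dixon's test, which flags about 1 group in 20 by chance. Hmox1 in GrnKO Rosa26 was at 171.6 CPM in batch 1, while the other 3 libraries lay between 277 and 290.04 CPM (gap over range 0.888). Without that library Hmox1 in GrnKO against WT Rosa26 cells was 0.60 ± 0.13 (adjusted p = 0.00207) in place of 0.43. The edit effect differed between genotypes by the interaction test for 4 members. The edit effect in GrnKO minus that in WT was -0.95 on the log2 scale for Slc40a1, -0.53 for Tfrc, -0.91 for Slc11a2 and -0.55 for Steap3.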

How the results depend on the processing

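Of 1560 values (10 genes, 6 comparisons, 26 alternatives each) 1467 kept their side of the threshold, 58 lost a call, 35 gained one and 0 called values changed sign. The 1467 include the fit with summed ferritins, which left the counts of the other members unchanged. Slc40a1, Tfrc, Slc11a2, Steap3, Ftl1 and Ncoa4 with Grn loss in Rosa26 cells, Slc40a1, Tfrc, Slc11a2 and Steap3 with the edit in GrnKO cells, and the Slc40a1 and Slc11a2 interactions kept their calls in all alternatives. Without the replicate block, the batch pairing, the members called were 0 in place of 1 for the edit in WT, 2 in place of 4 for the interaction and 3 in place of 5 for GrnKO TKO against WT Rosa26. Among the libraries with little Ddx3y, a fit of fewer samples without that block, they were 0, 2 and 0, and 0 in place of 3 for GrnKO against WT in TKO cells. For the edit in WT, no filter gave 3 members, DESeq2 2 and pairs of genotype and batch as the replicate block 3 (1171 of all genes), and the cause was not tested. With single libraries left out the members called numbered 8 to 10 for GrnKO against WT in Rosa26, 5 to 7 for the edit in GrnKO, 1 to 3 for the edit in WT (3 without WT Rosa26 replicate 3, 2 without WT TKO replicate 2), 2 to 5 for GrnKO against WT in TKO (5 without WT Rosa26 replicate 1), 4 to 6 for the interaction and 4 to 5 for GrnKO TKO against WT Rosa26. Calls over all genes then lay, in the same order, at 5784 to 7284, 3520 to 5587, 262 to 750, 278 to 1145, 1206 to 3608 and 947 to 2703. Over all genes, calls without the block were 216 in place of 515 for the edit in WT, 345 in place of 767 for GrnKO against WT in TKO, 910 in place of 2067 for the interaction and 732 in place of 1950 for GrnKO TKO against WT Rosa26. Pairs as the block gave 3607 for the interaction, and the 8 libraries compared alone gave 477 for GrnKO against WT in TKO and 480 for GrnKO TKO against WT Rosa26. DESeq2 gave 808 for the edit in WT and 1208 for GrnKO against WT in TKO. The little-Ddx3y libraries gave 2294 in place of 5011 for the edit in GrnKO, and 15, 50, 388 and 152 in the other 4 comparisons in the order above. Over the genes shared with the main fit, limma-trend on the authors' CPM shifted the change by a median of 0.113 for GrnKO against WT in Rosa26. There 65.7% of calls were higher, against 51.7% in the main scaling. For the interaction the median shift was -0.108 (24.3% higher, against 43.2%). No filter on low counts gave median shifts of 0.109 (61.9% higher) and -0.103 (32.1% higher) over the shared genes. The median change of all 46964 genes in that fit was 0.001 and 0.037. Slc11a2 and Slc40a1 had 120 and 180 counts in WT Rosa26 replicate 1, and their calls with Grn loss in Rosa26 cells were kept without that library and after thinning to its depth.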
